A study of Mus musculus with 12 samples.

Results

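Small nucleolar RNAs (snoRNAs) and their Cajal body relatives (scaRNAs) were examined in C2C12 cells, a mouse myoblast line that forms myotubes after serum is lowered. The genes described are those annotated as snoRNA or scaRNA whose FPKM reached 1 in 3 or more of the 6 libraries (FPKM is a fragment number divided by the length of the gene and the size of the library). The rule was met by 24 of the 888 snoRNA and scaRNA genes analysed, of which 22 are annotated as snoRNA and 2 as scaRNA. The cells reached 80% density in 10% fetal bovine serum and then spent 7 days in 2% horse serum. The control group of 3 libraries received no further agent. The OI group of 3 libraries was given 25 µmol/L 4-octyl itaconate, a cell-permeable ester of the metabolite itaconate, during differentiation. Cells of both groups came from 1 line and both were differentiated, so neither stands for muscle tissue or for growing myoblasts. The labels do not say whether the libraries of a group came from separate cultures, so the tests measure the spread between libraries, which may be technical. A second set of 3 control and 3 OI samples was not analysed here. The members were chosen by their FPKM in these same libraries, so their levels are given as a description.

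Most snoRNAs are cut from introns of longer transcripts and guide chemical changes of ribosomal RNA as part of small ribonucleoproteins. Box C/D snoRNAs carry a C box near the 5′ end and a D box near the 3′ end, bind fibrillarin and direct 2′-O-methylation. Box H/ACA snoRNAs end in an ACA shortly before the 3′ end, bind dyskerin and direct the conversion of uridine to pseudouridine. The scaRNAs use the same boxes, gather in Cajal bodies and direct the same changes in spliceosomal RNAs. Production of ribosomes is known to slow when dividing cells leave the cell cycle, as myoblasts do before they fuse.

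Library sizes recovered from the FPKM values ranged from 24441000 to 36274000 reads, in which single reads and read pairs cannot be told apart. Control replicate 1 stood apart from the other 5 libraries in abundant non-coding RNA. AY036118, a locus that resembles ribosomal RNA, was at 70761 FPKM there and at 691 to 2450 FPKM in the others. The muscle genes among the markers with a value, Tnnc1 and H19, had 110 to 140 and 131 to 136 FPKM in the control libraries. Both were lower with OI, at 21.9 to 24.7 and 24.1 to 32.1 FPKM (limma, Benjamini-Hochberg adjusted p under 0.05). Tnnc1 and H19 were 2 of 17 myotube markers listed. The lists were chosen with earlier results of these data known, so these values are no check of the labels. No myoblast, fibroblast, adipocyte or macrophage marker of the lists used had a value.

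The sequences of 7 members are printed to show the boxes by which the types are told apart, each whole but for Gm22009, from 5′ to 3′ as in GENCODE release M21 (build GRCm38), with the boxes in capitals. The boxes searched were TGATGA in the first 25 bases (C box), CTGA in the last 25 bases (D box) and ACA placed exactly 3 bases before the end, on the strand of the gene. Gm22009, Gm25835 and Snord80 had both the C and the D box, and Snora24 and Snora78 had the ACA. Gm23823 and Gm22478 had none of these at the places searched, though Gm23823 has an ACA nearer to its end. Gm22009 is shown because its level set it apart, and Gm25835, Snord80 and Snora24 because they had the highest median levels of their box class after it. Snora78 is shown because its groups did not overlap, and the last pair because they reached high levels without a match at the places searched.
Gm22009, bases 1 to 160: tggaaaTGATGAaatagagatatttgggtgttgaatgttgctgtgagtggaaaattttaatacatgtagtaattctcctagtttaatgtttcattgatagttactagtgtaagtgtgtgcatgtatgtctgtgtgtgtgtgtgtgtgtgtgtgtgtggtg
Gm22009, bases 284 to 343: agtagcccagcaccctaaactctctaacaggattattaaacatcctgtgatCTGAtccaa
Gm25835: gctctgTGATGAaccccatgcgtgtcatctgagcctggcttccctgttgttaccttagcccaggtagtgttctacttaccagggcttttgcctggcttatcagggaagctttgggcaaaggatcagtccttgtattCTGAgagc
Snord80: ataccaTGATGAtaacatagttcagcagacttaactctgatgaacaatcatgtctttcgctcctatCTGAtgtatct
Snora24: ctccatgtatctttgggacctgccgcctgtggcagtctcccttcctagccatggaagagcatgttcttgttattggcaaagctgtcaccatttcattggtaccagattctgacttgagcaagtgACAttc
Snora78: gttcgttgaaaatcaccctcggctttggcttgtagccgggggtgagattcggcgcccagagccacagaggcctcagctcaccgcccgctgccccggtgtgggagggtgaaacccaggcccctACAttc
Gm23823: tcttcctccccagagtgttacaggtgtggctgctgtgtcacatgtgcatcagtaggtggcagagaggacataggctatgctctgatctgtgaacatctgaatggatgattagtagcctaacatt
Gm22478: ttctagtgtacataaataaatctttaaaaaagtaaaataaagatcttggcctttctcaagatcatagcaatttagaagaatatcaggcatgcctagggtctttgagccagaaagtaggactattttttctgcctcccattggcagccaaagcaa

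The C and D boxes were both found in 9 of the 24 members (37.5%), the ACA without that pair in 5 (20.8%), the D box alone in 4 (16.7%) and none in 6 (25.0%). Among the 864 snoRNA and scaRNA genes outside the rule the same shares were 25.6%, 14.2%, 28.9% and 30.3%. In 3580 annotated snRNA and miRNA transcripts both C and D boxes occurred in 0.0559%, the ACA in 2.37%, the D box alone in 10.3% and none of the boxes in 87.2%. The D box alone is thus the class in which these other small RNAs come nearest to the members. Gm24299 matched both patterns and is counted with the C and D boxes. The C box of Gm22009 starts at base 7 and its D box at base 335 of 343, and from base 130 it holds a run of 28 alternating G and T. Box C/D members had lengths of 71 to 144 bases apart from Gm22009, and the longest member besides Gm22009 had 154 bases. Gm25835 lies at chr11:69668852-69668995, Snora24 at chr3:123507937-123508066, Snora78 at chr17:24719676-24719803 and Gm23823 at chr14:77540642-77540765, these 4 on the minus strand, and Snord80 at chr1:161037604-161037680 and Gm22478 at chr7:45388531-45388684 on the plus strand (GRCm38). A missing match says only that these letters are not at the places searched. Some members counted with none, among them Gm23823, Gm24500 and Scarna3a, have an ACA nearer to the end than the place searched.

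Each of the 24 members lies within another annotated gene, which is the usual place of a mammalian snoRNA. For 20 members that gene is on the same strand, and 13 of them share the strand of a protein-coding gene. Ribosomal protein genes hold Gm23136 (Rpl4) and Gm27326 (Rpl23). Genes for other abundant proteins hold Gm25835 (Eif4a1, an RNA helicase of translation initiation), Gm25117 (Nap1l1, a histone chaperone) and Gm22200 (Hspa9, a mitochondrial chaperone). Gm22009 lies at chr3:69085105-69085447 on the minus strand in an intron of Kpna4, which encodes an importin alpha. Non-coding hosts of the snoRNA host gene kind hold Snora24 (Snhg8), Snora78 (Snhg9), Snord87 (Snhg6), Snord123 (Snhg18), Snord80 (Gas5) and Gm23639 (Epb41l4aos). Of the members, 18 lie in introns only, 6 overlap an annotated exon of another gene on either strand (for Scarna3a that of a microRNA gene), and 2 of those a UTR. The 4 members without a host on their own strand are Gm22478 (opposite to Snrnp70), Gm24853 (opposite to Synj2bp), Gm24500 (opposite to Mtdh) and Gm23823 (opposite to Enox1). None of these 4 had the boxes at the places searched, and RefSeq lists Gm23823 as a pseudogene.

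The members were measured from few reads. In genes of 1 exon the FPKM values are whole numbers of reads once length and library size are undone, so the number of reads behind each value could be recovered. The median of the members' median read numbers was 4 per library, 19 members had a median under 10 reads and 16 under 5. For a member of 67 bases in the smallest library 1 FPKM was 1.64 reads, whereas for Gm22009 in the largest library it was 12.4 reads. A recovered value of 1 may not always be 1 observed read. Of 384 genes of 1 exon whose reads summed to 6, 204 were at exactly 1 in each of the 6 libraries, and 17 snoRNA and scaRNA genes showed the same flat pattern, among them Snord50a. Among the 144 values of the members, 12 were equal to 1 and 3 to 0, and these fell in 11 members. Intervals from read numbers therefore treat each recovered number as reads, and they cover counting error only.

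The median FPKM over the 6 libraries put Gm24853 first at 18.6, then Gm22009 at 5.91, Gm23823 at 3.76, Gm25835 at 2.95, Gm22478 at 2.60, Snord80 at 2.54 and Snora24 at 2.47 FPKM. The other 17 members had a median under 2 FPKM. In this order, the FPKM ranges over libraries of Gm24853 (12.2 to 20.5) and of Gm23823 (2.96 to 5.52) did not overlap, while those of Gm22009 (3.78 to 54.4) and Gm24853 did. From Gm23823 down to Snora24 the ranges of neighbours overlapped. FPKM was 1 or more in all 6 libraries for 7 members, in 5 for 4, in 4 for 3 and in 3 for 10. For those 10 members the third-highest FPKM, which decided the rule, lay between 1.01 and 1.75. For the 11 genes that reached 1 FPKM in 2 libraries it lay between 0.463 and 0.985. The lower members therefore form no group apart from the genes just outside the rule. Of the 888 snoRNA and scaRNA genes, 686 had no reads in any of the 6 libraries.

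**Figure D1:**
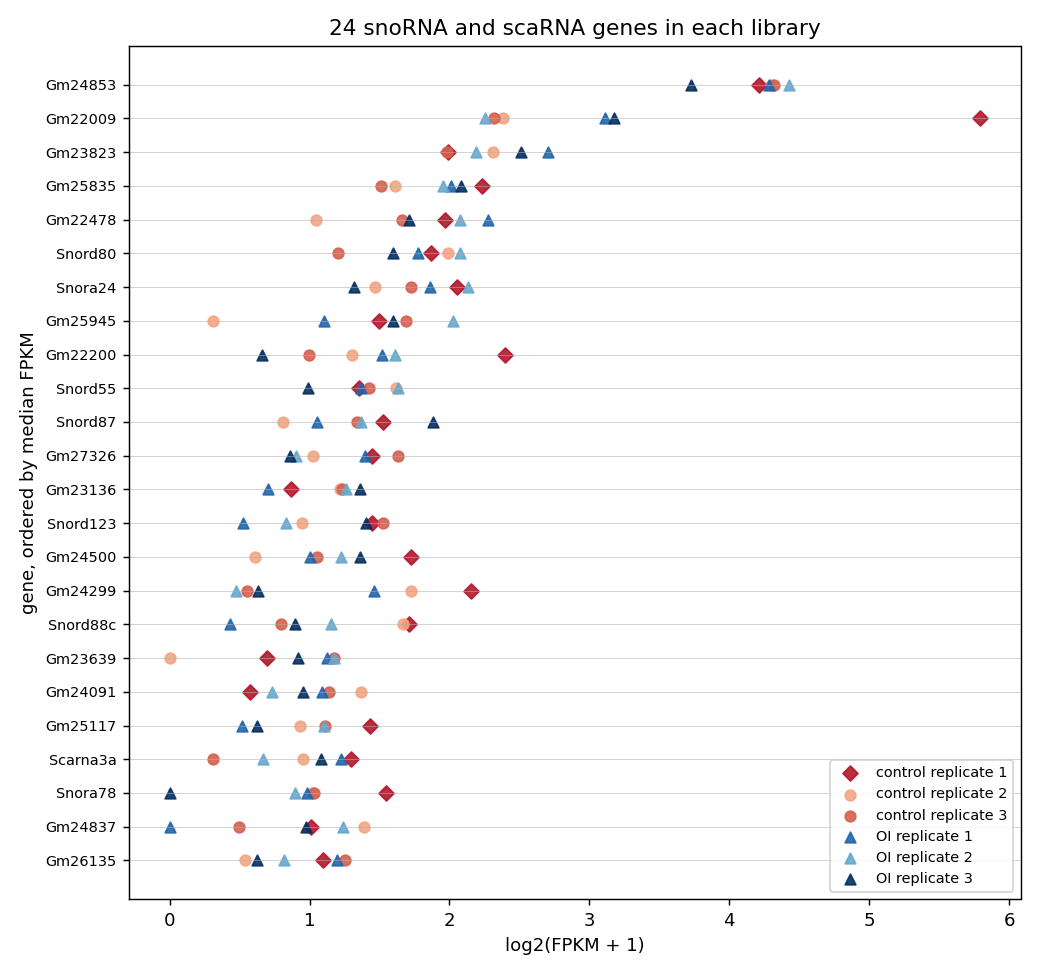
FPKM of the 24 members in each of the 6 libraries, as log2(FPKM + 1) on the horizontal axis, with genes ordered by median FPKM on the vertical axis. Diamonds and circles are control libraries and triangles OI libraries. Gm22009 in control replicate 1 (54.4 FPKM) lies far to the right of its other 5 values (3.78 to 8.06 FPKM), and Gm24853 is at 12.2 to 20.5 FPKM.

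For most members no clear variation between libraries beyond counting was seen, though so few reads could show little of it. A dispersion index, the chi-square of the reads against library size divided by its degrees of freedom, is 1 when libraries differ by counting alone. Its median over the members was 0.96 and 21 members were under 2. It was lowest for Snord55 at 0.22 and highest for Gm22009 at 290, followed by Gm25945 at 2.30 and Gm24299 at 2.15. At a median of 4 reads per library the index can miss variation between libraries. Recovered values of 1 that are not reads may also lower the index.

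Among the box C/D members, Gm25835 in Eif4a1 had 13, 9 and 8 reads in control replicates 1 to 3 and 14, 15 and 12 in OI replicates 1 to 3. These are levels of 3.69, 2.05 and 1.85 FPKM in control and 3.03, 2.87 and 3.24 FPKM in OI, so the groups overlapped. Snord80, which guides ribose methylation of ribosomal RNA from its place in Gas5, had 2.66, 2.98 and 1.30 FPKM in control and 2.43, 3.22 and 2.02 FPKM in OI. Snord55 was at 1.55, 2.07 and 1.69 FPKM in control and 1.58, 2.09 and 0.986 FPKM in OI, on 2 to 6 reads per library. The lowest Snord55 value was that of OI replicate 3, and the other 2 OI values lay within or just above the control range. Snord87 was at 1.88, 0.753 and 1.53 FPKM in control and 1.07, 1.58 and 2.69 FPKM in OI. Snord123 was at 1.73, 0.923 and 1.88 FPKM in control and 0.438, 0.777 and 1.65 FPKM in OI. In both of these the groups overlapped, on 1 to 6 reads per library. Snord88c, for which only the D box was found, was at 2.27, 2.18 and 0.741 FPKM in control and 0.346, 1.23 and 0.865 FPKM in OI. Its values rested on 1 to 6 reads, with control replicates 1 and 2 highest.

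Among the box H/ACA members, Snora24, a guide for pseudouridine in the small ribosomal subunit, had 10, 7 and 9 reads in control (3.15, 1.76 and 2.31 FPKM) and 11, 16 and 5 reads in OI (2.63, 3.39 and 1.50 FPKM). The OI group held both its highest and its lowest value. Snora78 had 6, 4 and 4 reads in control and 4, 4 and 0 in OI. Gm25945, in an intron of Khdc4, had 6, 1 and 9 reads in control (1.82, 0.243 and 2.22 FPKM) and 5, 15 and 7 in OI (1.15, 3.06 and 2.02 FPKM), so that control replicate 2 was lowest and OI replicate 2 highest. Gm25117 was at 1.70, 0.910 and 1.16 FPKM in control and 0.432, 1.15 and 0.541 FPKM in OI. Gm23639 was at 0.620, 0 and 1.26 FPKM in control and 1.18, 1.25 and 0.885 FPKM in OI, with its value of 0 in control replicate 2.

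Of the remaining members, Gm24299, which has both C and D boxes, was at 3.46, 2.31 and 0.470 FPKM in control and 1.75, 0.388 and 0.548 FPKM in OI. Gm22200, with the D box alone, was at 4.27, 1.47 and 0.995 FPKM in control and 1.86, 2.06 and 0.581 FPKM in OI. Control replicate 1 was the highest library for both, and the groups overlapped. Gm27326, in the ribosomal protein gene Rpl23, was at 1.72, 1.03 and 2.11 FPKM in control and 1.64, 0.871 and 0.820 FPKM in OI. Gm23136, in the ribosomal protein gene Rpl4, was at 0.827, 1.32 and 1.35 FPKM in control and 0.629, 1.39 and 1.57 FPKM in OI. Gm24837, in an intron of Ubap2, was at 1.01, 1.62 and 0.412 FPKM in control and 0, 1.36 and 0.961 FPKM in OI. In these 3 the libraries of both groups were mixed in order, on at most 6 reads each.

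Gm22009, annotated as a scaRNA and listed as a guide RNA in RefSeq, had 456 reads in control replicate 1. It had 44 and 41 reads in control replicates 2 and 3, and 84, 47 and 71 in OI replicates 1 to 3. Its levels were 54.4, 4.20 and 3.99 FPKM in control and 7.62, 3.78 and 8.06 FPKM in OI. Scaled to reads per 1000000 reads of the library (RPM) this was 18.7 (95% Wilson interval 17.0 to 20.5) in control replicate 1, against 1.44 (1.07 to 1.94) and 1.37 (1.01 to 1.85) in the other controls. In OI replicates 1 to 3 it was 2.62 (2.11 to 3.24), 1.30 (0.974 to 1.72) and 2.76 (2.19 to 3.49). Control replicate 1 was 12.9 times the median of the other 5 in FPKM. Among those 5, OI replicates 1 and 3 lay above OI replicate 2 and both remaining controls beyond their counting intervals, and the dispersion index without control replicate 1 was still 8.55. The other scaRNA member, Scarna3a in an intron of Cop1, a ubiquitin ligase gene, was at 1.46, 0.936 and 0.238 FPKM in control and 1.33, 0.591 and 1.11 FPKM in OI. It rested on 1 to 6 reads, and control replicate 1 was its highest library too, but at 1.56 times the median of the others. The 49 scaRNA genes outside the rule summed to 4.17 RPM in control replicate 1, against 1.10 to 1.53 in the others. Scarna2 gave 32 of their 102 reads there. The 815 snoRNA genes outside the rule summed to 7.94 RPM in control replicate 1, against 3.56 to 5.10 in the others.

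Other abundant non-coding RNAs had their highest value in the same library. The 7SL RNA genes Rn7s1 and Rn7s2 were at 480 and 401 FPKM in control replicate 1 and at 8.11 to 11.8 and 8.78 to 12.3 FPKM in the others. Rmrp, the RNA of RNase MRP, was at 74.6 FPKM against 0 to 0.804, and Rpph1, the RNA of RNase P, at 19.2 FPKM against 0 to 0.366. The nuclear RNA Malat1 had 1769 FPKM there and 312 to 429 FPKM in the others. For AY036118, OI replicates 1 (2144 FPKM) and 3 (2450 FPKM) also lay above the remaining 3 libraries (691 to 840 FPKM), as for Gm22009. Their part in the values of Gm22009 was not tested.

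**Figure D2:**
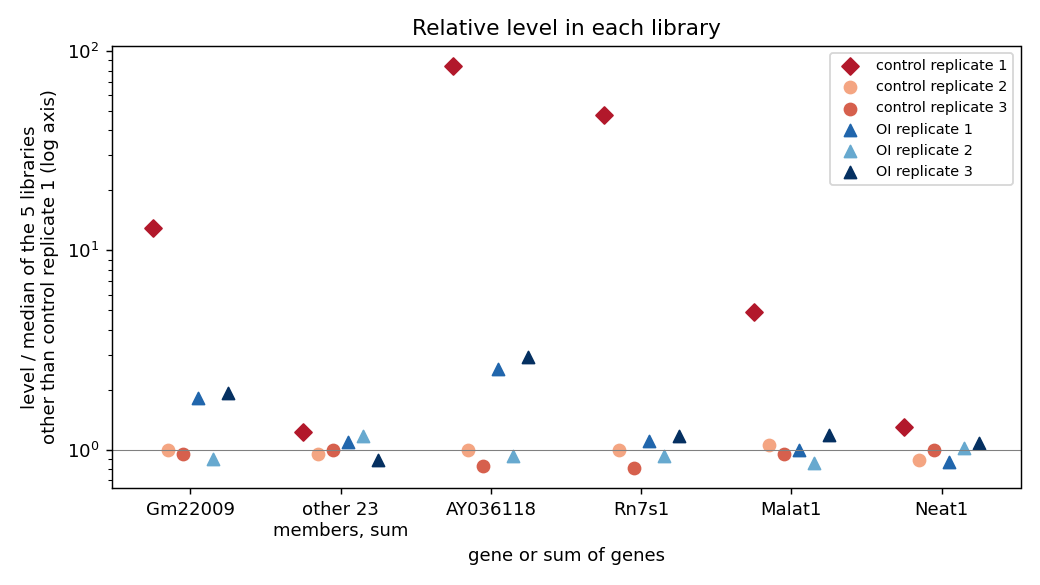
Level in each library divided by the median of the 5 libraries other than control replicate 1, on a log axis, for Gm22009, the summed RPM of the other 23 members, and 4 abundant non-coding RNAs. Control replicate 1 (diamonds) is 12.9 times the median for Gm22009 and 1.22 times for the sum of the other 23 members.

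The remaining members showed control replicate 1 much less. Over all 24 members it held 25.7 RPM, against 6.88 to 8.84 in the other libraries. Without Gm22009 it held 7.00 RPM against 5.06 to 6.70, a ratio of 1.22 to the median of the others. With Gm24853 left out as well it held 4.87 RPM against 3.18 to 4.22, a ratio of 1.36. Of the 1737 genes tested, which serve as the background here, 310 are annotated as protein-coding. Control replicate 1 was the highest library for 9 of the 24 members (37.5%), and for 353 of the 1737 genes tested (20.3%). It was over 2 times the median of the others for 5 members (20.8%), against 4.20% of the genes tested. Those 5 were Gm22009, Gm24299 (6.31 times, 6 reads there), Gm22200 (2.91 times, 7 reads), Snord88c (2.63 times, 5 reads) and Gm24500 (2.15 times, 7 reads). The median ratio was 1.32 over the members, 1.01 over all genes tested, 1.51 over 28 misc_RNA genes and 0.99 over 12 snRNA genes. It went the other way for Gm24091 (0.44), Gm23639 (0.53), Gm23136 (0.61) and Gm23823 (0.75). The choice of members by level makes these shares a description. Gm24299 and Snord88c reached 1 FPKM in 3 libraries, 1 of them control replicate 1, so they would not have met the rule without it. For those besides Gm22009, the ratios over 2 rested on 5 to 7 reads in control replicate 1, where counting error is large.

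Among all 888 snoRNA and scaRNA genes, the ratio of control replicate 1 to the median of the other libraries rose with length class. It was 1.23, 1.54 and 11.3 from the shortest class to the longest. The 328 genes under 100 bases summed to 3.40 RPM there, against 2.47 to 2.98 in the other libraries. The 536 genes of 100 to under 200 bases summed to 12.1 against 7.01 to 8.25. The 24 genes of 200 bases or more summed to 22.3 against 1.85 to 3.80. Gm22009 gave 456 of the 545 reads of this class in control replicate 1. With the members left out, the same 3 classes held 1.60 against 1.23 to 1.60, 6.87 against 2.65 to 3.89, and 3.64 against 0.459 to 1.18 RPM. The ratios were then 1.08, 2.19 and 6.07, but the difference in RPM from the median was larger in the middle class than in the longest. Of the 89 reads left in the longest class in control replicate 1, Scarna2 gave 32 and the near-identical Rnu3b genes 35. The 864 genes outside the rule thus also had more reads in control replicate 1, except for the shortest class.

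**Figure D3:**
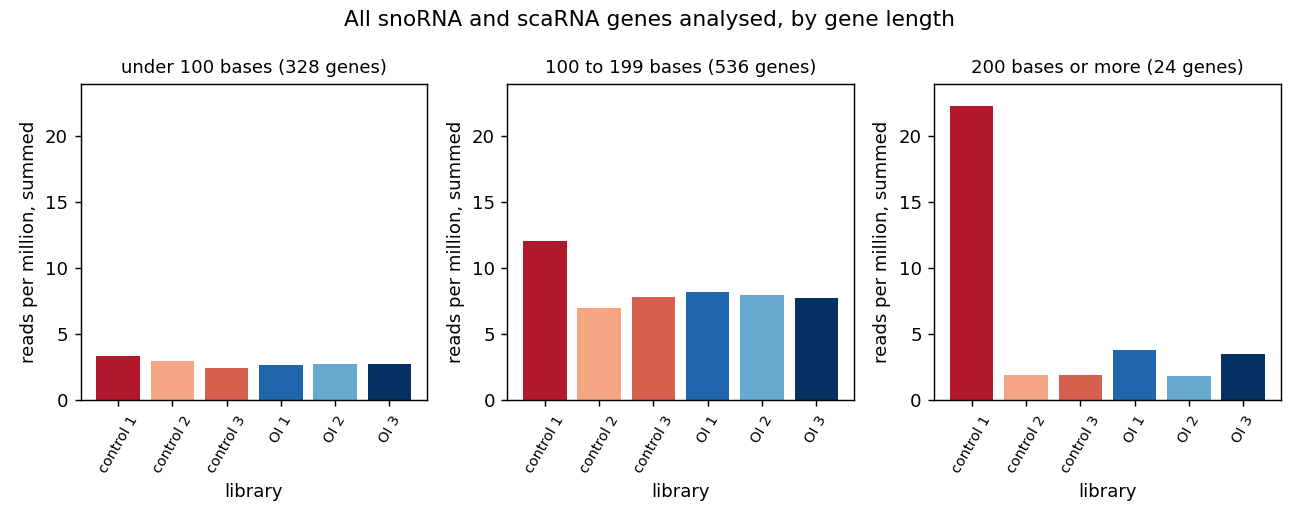
Summed RPM (reads per 1000000) of the 888 snoRNA and scaRNA genes in each library (bars), in 3 panels by gene length, with 1 vertical scale from 0. Control replicate 1 holds 22.3 RPM in the longest class, against 1.85 to 3.80 in the other libraries, and 3.40 against 2.47 to 2.98 in the shortest. Gm22009 gives 456 of the 545 reads of the longest class in control replicate 1.

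Gm24853 had the most reads after Gm22009. It had 52, 69 and 69 reads in control and 72, 90 and 38 in OI, or 17.6, 18.7 and 19.01 FPKM and 18.5, 20.5 and 12.2 FPKM. OI replicate 3 was the low library and the other 5 lay within 17.6 to 20.5 FPKM. Gm24853 sits at chr12:81501240-81501360 on the plus strand, over a UTR of Synj2bp, a mitochondrial outer membrane protein gene that is transcribed from the minus strand. Synj2bp was at 9.91, 10.5 and 9.55 FPKM in control and 9.50, 10.8 and 9.01 FPKM in OI, with OI replicate 2 highest and OI replicate 3 lowest, as for Gm24853. The sources used here do not give the strand setting of the read counting, so reads of Gm24853 and of Synj2bp cannot be told apart. The near copies of Gm24853 (Gm25909, Gm22598 and Gm22434) were at 0 in the 6 libraries.

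Gm23823 had 9, 15 and 11 reads in control (2.97, 3.96 and 2.96 FPKM) and 22, 16 and 15 in OI (5.52, 3.56 and 4.71 FPKM). OI replicates 1 and 3 were above the controls and OI replicate 2 was between them. Gm22478 was at 2.92, 1.06 and 2.16 FPKM in control and 3.84, 3.22 and 2.28 FPKM in OI, with control replicate 2 lowest. Gm24500 was at 2.31, 0.528 and 1.08 FPKM in control and 1.00, 1.33 and 1.57 FPKM in OI. Summed, the 4 members opposite to their hosts held 3.23, 2.98 and 3.13 RPM in control and 3.64, 3.58 and 2.61 in OI. For this sum, of which Gm24853 gave most reads, control replicate 1 lay within the range of the other libraries. It was the highest library for Gm24500 by itself.

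A host could be set beside its snoRNA where the host was among the genes analysed. Reads of an unspliced host transcript and of the snoRNA within it cannot be told apart in these values. Snhg8 was at 24.4, 21.7 and 25.9 FPKM in control and 23.6, 15.0 and 20.4 FPKM in OI. Its lowest library, OI replicate 2, was the highest for Snora24, which overlaps an annotated exon of Snhg8. Epb41l4aos, the host of Gm23639, was at 15.5, 12.3 and 12.5 FPKM in control and 9.99, 8.98 and 9.60 FPKM in OI, with no overlap of the groups, while Gm23639 overlapped. Snhg18, the host of Snord123, was at 12.3, 10.7 and 12.4 FPKM in control and 10.6, 8.98 and 9.51 FPKM in OI, also without overlap. Neither host passed the limma test (adjusted p of 0.10 for Epb41l4aos and 0.24 for Snhg18). Snhg6, the host of Snord87, was at 5.71 to 7.16 FPKM in control and 5.98 to 6.74 FPKM in OI. Snhg9, which holds Snora78, was at 0 to 0.358 FPKM, below Snora78 in each library but OI replicate 3, where both were at 0.

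**Figure D4:**
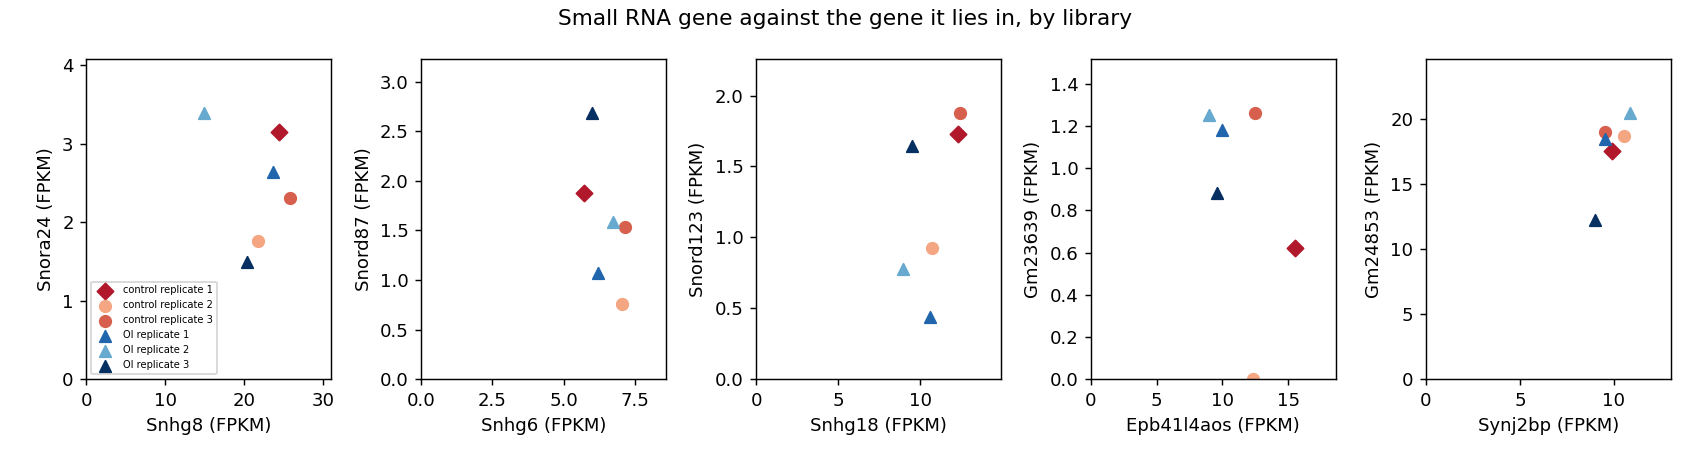
FPKM of 5 members (vertical axes) against FPKM of the annotated gene each lies in (horizontal axes), 1 point per library and both axes from 0. Gm24853 and Synj2bp have their lowest values in the same library, OI replicate 3, while Snora24 is highest in OI replicate 2, where Snhg8 is lowest.

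For 8 members another snoRNA gene or entry matched with 90% identity or more along 80% or more of the length, so that their reads may have been shared out by the counting. Gm24091 is identical to Gm23711. They had 1, 4 and 3 against 1, 3 and 1 reads in control, and 3, 2 and 2 against 2, 3 and 2 in OI. Gm26135 is identical to Snord50b, which had 1 read in each control library and 6, 1 and 3 in OI, while Gm26135 had 2, 1 and 3 in control and 3, 2 and 1 in OI. Gm23823 matched Gm25767 at 99.2% identity, and that copy had 1 or 2 reads per library. The values of these members are uncertain for that reason, as are those of Gm24853, Gm25117 (best copy 93.7%), Snord88c (94.4%), Gm23639 (91.6%) and Snord80, which the reference lists a second time.

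The comparison of OI with control asks whether the treated cells differed in these RNAs on day 7. None of the 24 members passed limma at an adjusted p of 0.05, in either direction, against 2.76% of the 1737 genes tested (1.15% higher and 1.61% lower in OI). Only 310 of those 1737 genes are annotated as protein-coding, so shares of the genes tested do not stand for the whole transcriptome. At an unadjusted p under 0.05 there were 0 members, against 17.8% of the genes tested, and a limma voom fit on the recovered reads also called 0 members. That 0 depended on the libraries used. Without control replicate 1 there were 2 members under an unadjusted limma p of 0.05, and without control replicate 3 there were 3. The adjusted p of the members ran from 0.306 to 0.996 with all 6 libraries. Without control replicate 1 the smallest limma adjusted p of a member was 0.126. Of the members, 13 had a log2 fold change below 0, against 55.4% of the genes tested, and the median was -0.09 over the members and -0.02 over the genes tested. With rescaling to a common sum these medians were 0.20 and 0.36, so the sign of the members' median depended on the scaling. It depended on 1 library as well, since without control replicate 1 the medians were 0.048 over the members and -0.02 over the genes tested. In bulk RNA, fewer cells of a type and less RNA per cell cannot be told apart.

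In the limma fit on log2(FPKM + 1) of all 6 libraries, the member nearest to the threshold was Gm23823. It had 3.30 ± 0.58 FPKM (SD, n = 3) in control and 4.60 ± 0.99 FPKM (SD, n = 3) in OI. On the log2(FPKM + 1) scale the fold change was 0.37 ± 0.16 (SE), with a 95% interval of -0.02 to 0.77 and a limma adjusted p of 0.306. Gm22478 had the highest value, 0.46 ± 0.27, with an interval of -0.18 to 1.10 (limma adjusted p = 0.424). At the other end Gm22009 had -0.65 ± 0.95 (limma adjusted p = 0.801) from 20.9 ± 29.0 FPKM (SD, n = 3) in control and 6.49 ± 2.36 FPKM (SD, n = 3) in OI. Without control replicate 1 its value was 0.50 ± 0.30 (limma adjusted p = 0.484), so that 1 library decided its sign. Gm24299, in a UTR of Taf1d, a factor of RNA polymerase I, had -0.62 ± 0.46 (limma adjusted p = 0.549) on 1 to 6 reads per library, and -1.02 with a pseudocount of 0.1.

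The groups did not overlap in 1 member, Snora78, against 23.6% of the genes tested (12.5% lower in OI). Its FPKM was 1.92, 1.02 and 1.04 in control and 0.973, 0.862 and 0 in OI. The log2 fold change was -0.57 ± 0.30 (limma adjusted p = 0.387). It was -1.55 with a pseudocount of 0.1 and -1.28 in the voom fit on recovered reads (limma adjusted p of 0.462 and 0.423). It met the rule through the control group alone, so its groups had to be apart, and in reads 2 controls and 2 OI libraries were tied at 4.

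By box class, the 9 members with C and D boxes had a median log2 fold change of -0.10, with 6 below 0. The 5 members with the ACA had a median of 0.02, with 2 below 0. The 4 with the D box alone had -0.27, with 3 below 0, and the 6 without a match at the places searched had 0.10, with 2 below 0. The 4 members opposite to their host had a median of 0.22 and the 20 on the host's strand -0.12. No interval was computed for these medians, and the classes were not tested against each other. A single member's 95% interval had a median half-width of 0.64 on the log2 scale, which does not measure the error of a median over members. On the log2(FPKM + 1) scale, which compresses the fold of members near 1 FPKM and so gives no bound on it, the interval lay inside -1 to 1 for 14 members, among them Gm24853 (-0.58 to 0.31), Snord55 (-0.57 to 0.30) and Gm25835 (-0.24 to 0.71). For the other 10 it reached 1 or -1, and for Gm22009 it ran from -2.95 to 1.65.

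**Figure D5:**
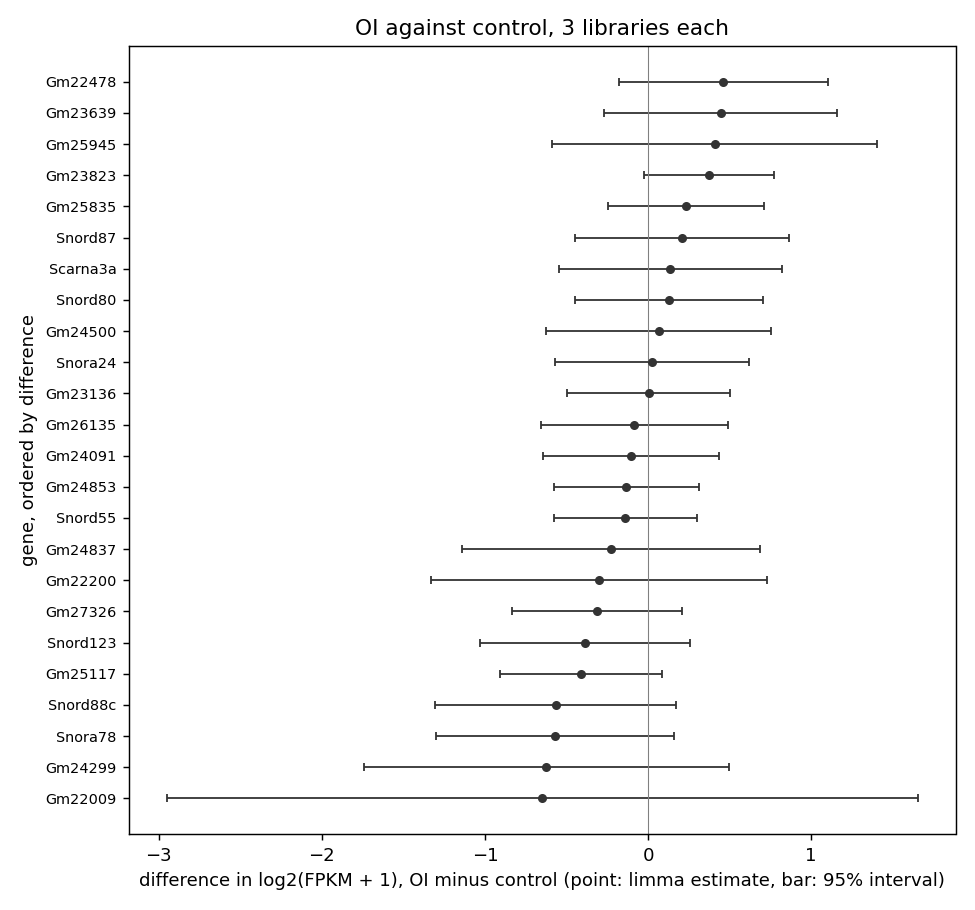
Difference in log2(FPKM + 1) between OI and control (horizontal axis, OI minus control) for the 24 members. Points are limma estimates from 3 libraries a group and bars their 95% intervals. Each interval includes 0, from the narrowest around Gm23823 (-0.02 to 0.77) to the widest, that of Gm22009 (-2.95 to 1.65).

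The other genes of the pathway could be followed only in part. None of the 23 proteins of snoRNA particles and their assembly listed, such as fibrillarin and dyskerin, was among the genes analysed. Of 34 snoRNA host genes listed, 17 were analysed and 13 tested. None of the 13 passed limma at an adjusted p of 0.05, 9 were below 0 and their median log2 fold change was -0.07, against -0.02 over all genes tested. In 4 of the 13 hosts the groups did not overlap, against 23.6% of the genes tested (12.5% lower in OI). These hosts were Snhg12 (-0.30), Snhg18 (-0.26), Epb41l4aos (-0.45) and Snhg20 (-0.07), each lower in OI. Of 10 abundant non-coding RNAs listed, 5 were tested, none passed and 5 were below 0 with a median of -1.11. Control replicate 1 was the highest library for those 5 genes, AY036118, Malat1, Neat1, Rn7s1 and Rn7s2, and its part in their difference was not tested.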

How the data were processed

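Per the labels' protocols, RNAiso Plus was used to extract the total RNA and a TruSeq RNA kit for the libraries. The submitters' processing notes name HISAT2 2.1.0, StringTie 1.3.3b, cutadapt 2.7 and the build mm10. The authors deposited FPKM values, 1 table per library. The sources used here do not give any poly(A) or size selection or the strand setting, and each can change how much of a small RNA is read.

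Of 27943 rows 1 was broken and left out. Genes with an FPKM of 1 or more in at least 3 libraries (1737) were tested on log2(FPKM + 1) with limma 3.58.1 (R 4.3.3), with trend, two-sided, and Benjamini-Hochberg adjustment over them; such fold changes understate low genes. Reads were recovered from FPKM times length within 0.01 of a whole number. Places, hosts and sequences came from GENCODE M21, in which the 24 members had the same position, and copies from BLAST+ 2.17.0. The 17 named members were those with the highest levels per class, the groups apart, the most extreme ratios in control replicate 1 or an analysed host. Class here was read from the symbol (Snord or Snora) or the scaRNA annotation and not from the boxes. Gm25835 and Gm25945 were therefore not among the 17, though they had boxes and higher levels than some that were. Members outside the 17 were named after their values were seen. The members and lists were chosen with earlier results of these data known. The fit was tested on simulated data. Alternatives changed the pseudocount, filter, scaling, limma options, block and libraries. Tables and figures used Matplotlib 3.10.9, SciPy 1.17.1 and pandas 2.3.3 in Python 3.11.15.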

Additional observations from a re-analysis of the deposited data

How the results depend on the processing

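The count of members past the threshold was 0 in each direction under each alternative run, and of 308 values of the 17 named members 284 kept their direction, 24 did not, and 0 passed limma's adjusted threshold. Over all 24 members the smallest limma adjusted p was 0.126, without control replicate 1, for a member outside those 17. Over all genes tested, the 48 calls became 14 without a filter (of 10948 genes), 7 with rescaling to a common sum (6 higher and 1 lower in OI, against 20 and 28), 15 with scaling over the members (4 higher and 11 lower), 11 in a voom fit on genes of 1 exon with 10 or more reads, which was chosen after seeing the data, and 15 to 27 when 1 library was left out, where the split was 4 and 15 without control replicate 2, 2 and 13 without OI replicate 2, and 2 and 14 without OI replicate 3. With the replicate number as a block 17 genes were called (3 higher and 14 lower) and 0 members; same-numbered libraries had correlations of 0.05, 0.14 and -0.08 in their deviations, so the numbers were not taken as pairs. The median log2 fold change of the members, -0.09, became -0.39 with a filter at 5 FPKM, which left 2 members, and 0.20 with the common sum, and ran from -0.11 to 0.048 when 1 library was left out, the last without control replicate 1. With the common sum the sign turned for Snord55 (0.15), Gm22200 (0.11), Gm24091 (0.038), Gm24853 (0.41) and Gm26135 (0.17), and for Gm23136 it turned with a pseudocount of 0.1 (-0.023) and with voom on recovered reads (-0.066). Leaving out 1 library turned the sign of 11 of the 17 named members (the other 7 of the 24 members were not followed there), with ranges of -1.24 to 0.50 for Gm22009, -0.59 to 0.11 for Gm22200, -0.12 to 0.21 for Gm23136, -0.16 to 0.25 for Snora24, -0.33 to 0.066 for Gm24091, -0.11 to 0.28 for Snord80, -0.14 to 0.36 for Scarna3a, -0.29 to 0.063 for Gm26135, -0.29 to 0.031 for Snord55, -0.015 to 0.40 for Snord87 and -0.27 to 0.078 for Gm24853. A pseudocount of 0.1 gave larger values for low members, such as 1.37 for Gm23639 (0.45 with 1) and -0.23 for Snord55 (-0.14 with 1). The cause of the other changes was not tested. Depth limits most members: 19 of 24 had a median under 10 reads.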

Other observations

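Several snoRNA and scaRNA genes outside the rule had their highest read number in control replicate 1. Scarna2, a guide RNA of Cajal bodies with 414 bases, had 32, 3 and 2 reads in control replicates 1 to 3 and 10, 1 and 6 in OI replicates 1 to 3. OI replicates 1 and 3 were again above OI replicate 2. The Rnu3b genes encode U3, a box C/D RNA needed for the cleavage of pre-ribosomal RNA rather than for its modification. Summed over their 8 entries, which are near-identical copies, they had 35, 2 and 7 reads in control and 18, 8 and 9 in OI. Gm26347, a scaRNA gene of 131 bases, had 13, 4 and 2 reads in control and 3, 3 and 0 in OI, and Gm22442, of 144 bases, had 12, 3 and 0 in control and 0 in each OI library. Snord16a had 10 reads in control replicate 2 and 1 or 2 in each of the other libraries. These genes were picked after their values were seen, and their groups were not tested.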
